A study of Mus musculus with 6 samples.

Results

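The 37 genes described here carry glucose from its entry into the cell to the end of the citric acid cycle, and they were measured in ribosome-bound RNA from the striatum of mice given morphine or saline. They were taken by gene symbol: 4 plasma membrane transporters of glucose and lactate, 17 cytosolic enzymes of glycolysis and lactate metabolism, 4 subunits of the pyruvate dehydrogenase complex and 12 enzymes of the citric acid cycle or its malate shuttle. All 37 are among the 18732 genes of the authors' deposited comparison, and all 37 have an adjusted p, as do 17279 genes in all. The symbol Aldoa stands on 2 identifiers; the abundant one (ENSMUSG00000030695) is used, and the other (ENSMUSG00000114515), annotated next to it on chromosome 7, had a mean of 40.6 normalized counts and a log2 fold change of 0.12 (SE 0.50) in the authors' deposited table.

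Morphine-treated and saline-treated mice were compared in 3 libraries per treatment, and the striata of 2 brains went into each library. Morphine was injected under the skin in doses of 20, 40, 60 and finally 100 mg/kg, 2 injections a day over 5 days, and the tissue was taken 24 h after the last dose. All animals, saline controls included, carried Cre recombinase at Oprm1, which encodes the mu opioid receptor, and RosaLSL-GFP-L10a, which yields a GFP-tagged ribosomal protein once Cre has acted. For the Cre allele the sample labels give Oprm1Cre/+, whereas the series description gives Oprm1Cre/Cre; which one holds is unknown. RNA was purified with antibodies against GFP, so it comes mainly from cells in which Oprm1-Cre has been active, and RNA of other cells can come with it. The sources used here give neither the age or sex of the mice nor which libraries entered the authors' fit. Values per library were not analysed here: each gene has its mean normalized count over the fitted libraries, a log2 fold change and the standard error (SE) of that fold change, all from the authors. A positive fold change is read as higher after morphine, because the authors filed the positive values under Up, but the table does not name its numerator.

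Neurons take up glucose mainly through the transporter GLUT3 and endothelial cells and astrocytes mainly through GLUT1. Glycolysis in the cytosol turns glucose into pyruvate, lactate dehydrogenase interconverts pyruvate and lactate, and monocarboxylate transporters move lactate between cells. In the mitochondrion the pyruvate dehydrogenase complex makes acetyl-CoA, which the citric acid cycle oxidises to feed the respiratory chain. The enzymes are made on free ribosomes in the cytosol, whereas the plasma membrane transporters are made on ribosomes bound to the endoplasmic reticulum.

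The transporters are set apart from the enzymes by their membrane-spanning stretches, and the coding bases of the most hydrophobic 19 codons are shown for each of them, beside those of Aldoc, the one enzyme gene that rose. Capitals mark codons with T as the second base (NTN), which in the genetic code specify phenylalanine, leucine, isoleucine, methionine or valine. The sequences are the coding strand of the longest coding sequence in GENCODE M21 (GRCm38).
Slc2a1: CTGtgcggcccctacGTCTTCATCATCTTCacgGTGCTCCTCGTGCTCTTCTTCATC
Slc2a3: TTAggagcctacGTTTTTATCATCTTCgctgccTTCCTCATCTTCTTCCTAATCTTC
Slc16a1: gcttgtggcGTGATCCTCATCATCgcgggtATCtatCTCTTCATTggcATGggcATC
Slc16a7: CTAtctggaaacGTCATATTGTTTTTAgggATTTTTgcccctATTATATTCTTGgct
Aldoc: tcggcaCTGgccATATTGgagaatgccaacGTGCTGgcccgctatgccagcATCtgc
Of the 19 codons, 14 were NTN in Slc2a1 and in Slc2a3, 11 in Slc16a1 and 12 in Slc16a7, against 6 in Aldoc. The windows of the 33 enzymes held 6 to 13, and that of Mdh1, with 13, held more than those of Slc16a1 and Slc16a7, so the counts of the transporters and enzymes overlap. Over the whole coding sequence NTN codons made up 39.2% in Slc2a1, 40.0% in Slc2a3, 34.5% in Slc16a1 and 35.3% in Slc16a7, against 23.7% to 33.5% in the 33 enzyme genes. Read as a mean Kyte-Doolittle hydropathy over 19 residues, a scale on which a window of at least 1.9 was counted as a membrane segment, the highest window lay between 2.25 and 2.85 in the transporters. In the enzymes it lay between 0.889 and 2.27, so these ranges overlap too, with Ldha at 2.27 above Slc16a7 at 2.25. Only Ldha and Mdh1, both soluble enzymes, crossed 1.9 with 1 window each.

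Of the 37 genes, 4 were higher after morphine and 0 lower at the authors' adjusted p below 0.05 (Benjamini-Hochberg, DESeq2), against 11.8% of all tested genes called higher and 2.01% called lower. Another 4, all enzymes below 0, had an unadjusted p under 0.05. The genes that rose were 3 of the 4 transporters and 1 of the 33 enzymes. The transporters had a median log2 fold change of 0.71, the glycolytic and lactate enzymes of -0.06 and the pyruvate dehydrogenase and citric acid cycle enzymes of -0.16, beside -0.01 over all tested genes. In this bulk RNA, fewer cells of a type and less RNA per cell cannot be told apart.

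**Figure D1:**
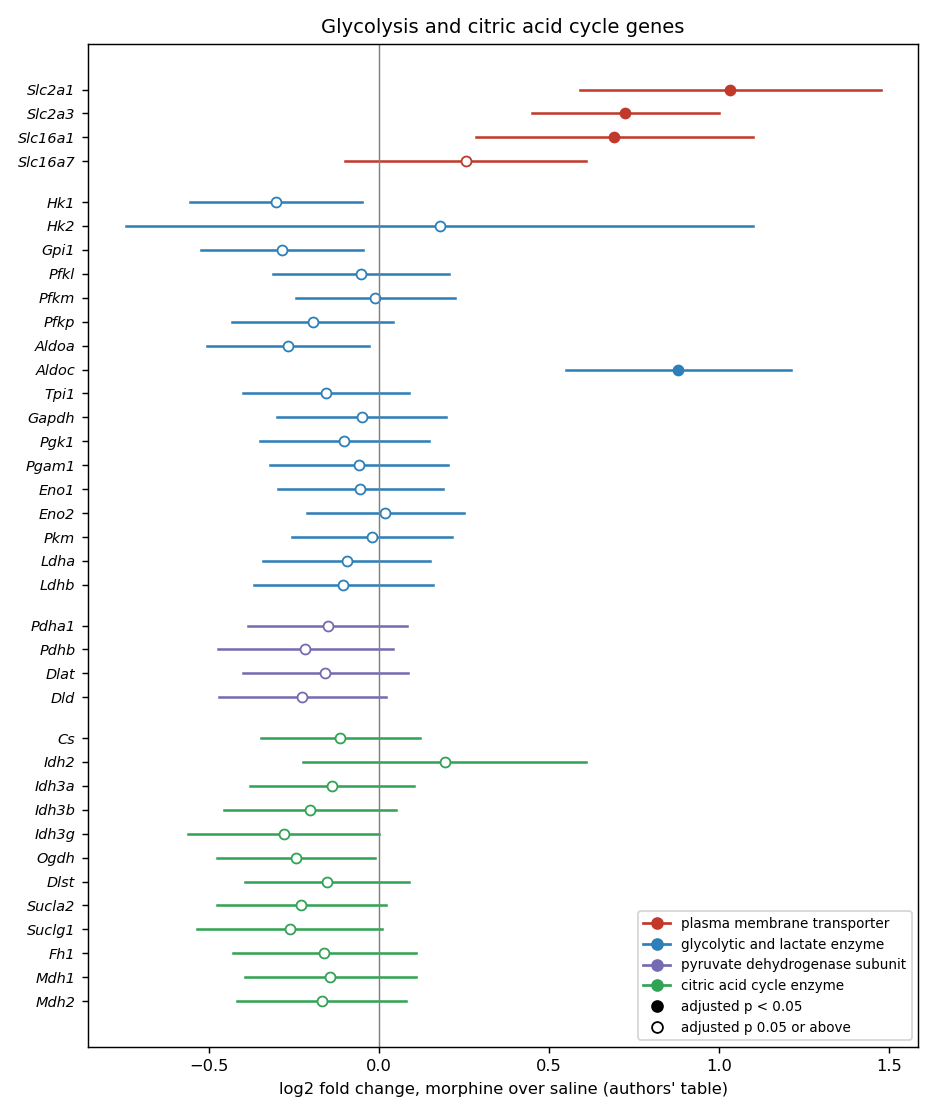
Log2 fold change of morphine over saline (x axis) of each of the 37 genes (rows), grouped by role, with 95% intervals computed from the authors' SE as lines. Filled points passed an adjusted p of 0.05: Slc2a1, Slc2a3, Slc16a1 and Aldoc, which lie between 0.69 and 1.03, while 29 of the 33 enzymes lie below 0.

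Slc2a1 (ENSMUSG00000028645, chromosome 4, 119108711 to 119137983, GRCm38) encodes GLUT1, the glucose transporter of the blood-brain barrier and of glia. In the authors' deposited table it was 2.04-fold higher after morphine (log2 1.03, SE 0.23, 95% interval 0.59 to 1.47 on the log2 scale, adjusted p = 9.96e-05), from a mean of 475 normalized counts. Slc2a3 (ENSMUSG00000003153, chromosome 6, 122727809 to 122801640) encodes GLUT3, the main glucose transporter of neurons. By the authors' deposited table it rose 1.65-fold (95% interval 1.37 to 2.00; log2 0.72, SE 0.14, adjusted p = 7.46e-06), from a mean of 5566. The intervals of these glucose transporters overlap, and whether their changes differ was not tested, since the covariance of 2 genes over the libraries is unknown.

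Slc16a1 (ENSMUSG00000032902, chromosome 3, 104638668 to 104658462) encodes MCT1, the monocarboxylate transporter of endothelial cells and glia. The authors' deposited table put it 1.61-fold higher (95% interval 1.22 to 2.14; log2 0.69, SE 0.21, adjusted p = 0.00893), and its call was lost when the authors' statistic was divided by its spread over all genes (adjusted p = 0.153). Slc16a7 (ENSMUSG00000020102, chromosome 10, 125219270 to 125389465) encodes MCT2, the high-affinity monocarboxylate transporter of neurons. It did not pass: the authors' deposited table gave 1.19-fold (95% interval 0.933 to 1.52; log2 0.25, SE 0.18, adjusted p = 0.468). Its SE was 1.31 times that typical of genes at its level.

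Aldoc (ENSMUSG00000017390, chromosome 11, 78322968 to 78327781) encodes aldolase C, the brain aldolase that is most abundant in astrocytes. In the authors' deposited table it rose 1.84-fold (95% interval 1.46 to 2.31; log2 0.88, SE 0.17, adjusted p = 5.73e-06). Aldoa (chromosome 7, 126795234 to 126800751), the general aldolase, was at 0.830-fold in the authors' deposited table (95% interval 0.704 to 0.980, adjusted p = 0.147). The intervals of these isoenzymes do not overlap, but whether their changes differ was not tested, for the reason given for the glucose transporters.

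Marker genes of several glial cell types moved with these results. Of 9 astrocyte markers 6 rose and 0 fell, with a range from -0.09 to 2.34 on the log2 scale of the authors' deposited table, and the most extreme were Slc7a10 (2.34) and Slc1a3 (2.28). Oligodendrocyte markers rose in 7 of 9 (0.65 to 1.97), microglial markers in 6 of 7 measured (0.02 to 2.88) and choroid plexus markers in 4 of 5 measured (1.78 to 4.68) in the authors' deposited table. The most extreme values in the authors' deposited table were those of Cldn11 (1.97) and Mag (1.86) for oligodendrocytes, Cx3cr1 (2.88) and C1qb (2.56) for microglia, and Ttr (4.68) and Folr1 (3.16) for choroid plexus. The kind of protein moved with these counts as well: over the 4 lists, 17 of 18 tested markers with a predicted membrane or signal segment were higher, beside 45.9% of all coding genes with one, and 6 of 12 markers without, beside 2.78%. In the astrocyte list all 5 with a segment rose and 1 of 4 without. Of 8 tested endothelial markers 0 passed, with 2 at an unadjusted p under 0.05 and a range from -0.16 to 1.36 in the authors' deposited table. All 8 have a predicted segment, a kind in which 45.9% of all coding genes were higher. Means were low for endothelial markers, at most 186 normalized counts, and for microglial markers, at most 150. Of 9 markers of spiny projection neurons, the principal striatal neurons, 2 rose and 0 fell. They ranged from -0.23 to 0.70 in the authors' deposited table, and all 9 had a mean of at least 11925 normalized counts. Among them 2 of 5 with a predicted segment rose, and 0 of 4 without one. The part of glial RNA in the changes of Slc2a1, Slc16a1 and Aldoc was not tested.

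The remaining glycolytic and lactate enzymes did not pass, and most lay slightly below 0. Without Aldoc there are 16, of which 14 were below 0 in the authors' deposited table, with a median of -0.08. Hk1, which encodes the hexokinase that starts glycolysis in brain, had the lowest value in the authors' deposited table, -0.30 (SE 0.13, 0.811-fold, unadjusted p = 0.0193, adjusted p = 0.113). Gpi1, which encodes glucose-6-phosphate isomerase, was at -0.28 in the authors' deposited table (SE 0.12, 0.821-fold, adjusted p = 0.112).

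The phosphofructokinase genes, whose enzyme commits glucose to glycolysis, were at -0.01 for Pfkm, -0.19 for Pfkp and -0.05 for Pfkl in the authors' deposited table (SE 0.12, 0.12 and 0.13). Below the aldolases in the pathway, the authors' deposited table gave the triose phosphate isomerase gene Tpi1 -0.16 (SE 0.12), Gapdh -0.05 (SE 0.13), the phosphoglycerate kinase gene Pgk1 -0.10 (SE 0.13) and the phosphoglycerate mutase gene Pgam1 -0.06 (SE 0.13). The enolase genes were at -0.06 for Eno1 and 0.02 for Eno2 in the authors' deposited table, and the pyruvate kinase gene Pkm at -0.02 (SE 0.12 each). Ldha and Ldhb, which encode the muscle and heart types of lactate dehydrogenase, were at -0.10 and -0.11 in the authors' deposited table (SE 0.12 and 0.13). Every one of these 12 genes had a 95% interval that includes 0.

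All 4 pyruvate dehydrogenase genes were below 0 and none passed. The authors' deposited table gave Pdha1 and Pdhb, the subunits of the decarboxylase, -0.15 (SE 0.12) and -0.22 (SE 0.13). It gave Dlat, the acetyltransferase, -0.16 (SE 0.12), and Dld, the dehydrogenase that closes the reaction, -0.23 (SE 0.13) in the authors' deposited table.

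Of the 12 citric acid cycle and malate dehydrogenase genes, 11 were below 0 and none passed. Citrate synthase, Cs, was at -0.11 (SE 0.12) in the authors' deposited table. The subunits of the NAD-dependent isocitrate dehydrogenase were at -0.14 (SE 0.12) for Idh3a, -0.20 (SE 0.13) for Idh3b and -0.28 (SE 0.14) for Idh3g in the authors' deposited table. Idh2, the NADP-dependent mitochondrial enzyme, was the exception at 0.19 (SE 0.21) in the authors' deposited table, from a mean of 361 normalized counts.

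The authors' deposited table gave the oxoglutarate dehydrogenase gene Ogdh -0.24 (SE 0.12, unadjusted p = 0.0397, adjusted p = 0.192) and its succinyltransferase partner Dlst -0.15 (SE 0.12). The succinyl-CoA ligase genes were at -0.23 (SE 0.13) for Sucla2 and -0.26 (SE 0.14) for Suclg1, and the fumarase gene Fh1 at -0.16 (SE 0.14), in the authors' deposited table. Mdh1 and Mdh2, the cytosolic and mitochondrial malate dehydrogenases, were at -0.14 and -0.17 in the authors' deposited table (SE 0.13 each).

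These enzyme values were small, and their intervals bound what could have been missed only as far as the authors' SEs hold. The authors' statistic had a spread of 1.37 over all tested genes. That spread takes in genes that changed as well as any error in the SEs, and these parts were not separated. Intervals widened by a factor of 1.37 would leave fewer enzymes within 1.5-fold than the count given next, and that smaller count was not computed. For 30 of the 33 enzymes the whole 95% interval lay within a 1.5-fold change in either direction; the exceptions were Aldoc, Hk2 and Idh2. Hk2, the inducible hexokinase, had a mean of 62.7 normalized counts. Its interval, computed from the authors' SE, ran from 0.597-fold to 2.14-fold, so a doubling lies within it. The interval of Idh2, computed in the same way, ran from 0.857-fold to 1.52-fold. Of the 33 enzymes 29 were below 0, or 87.9%, beside 63.0% of all coding genes with no predicted membrane or signal segment and 70.8% of those with a mean of at least 1000. These are descriptions of genes measured in the same libraries, which are not independent of each other.

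Levels differed far more between the genes than the fold changes did. Set per kilobase of coding-transcript exon, the mean normalized count over the fitted libraries was highest for Aldoa at 50502, followed by Gapdh at 36847, Eno2 at 19629, Pkm at 17244 and Mdh1 at 14806. The lowest were Slc2a1 at 146, Slc16a1 at 142 and Hk2 at 11.2, also per kilobase. The spread of these levels over libraries is unknown, so close neighbours in this order, such as Slc2a1 and Slc16a1, are not shown to differ.

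Among isoenzymes, Hk1 made up 99.6% of the summed hexokinase level per kilobase and Aldoa 98.5% of the aldolase level. Eno2, the neuronal enolase, held 72.5% of the enolase level per kilobase and Ldhb 72.1% of that of lactate dehydrogenase. Phosphofructokinase was divided among Pfkm at 45.8%, Pfkp at 35.7% and Pfkl at 18.5% of the summed level per kilobase. GLUT3 transcripts predominated over GLUT1 transcripts, with Slc2a3 at 90.6% of the level per kilobase of this pair, and Slc16a7 held 62.3% against Slc16a1. The called genes were thus both abundant and minor isoforms: Slc2a3 is the larger part of its pair, while Slc2a1, Slc16a1 and Aldoc are the smaller part of theirs.

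**Figure D2:**
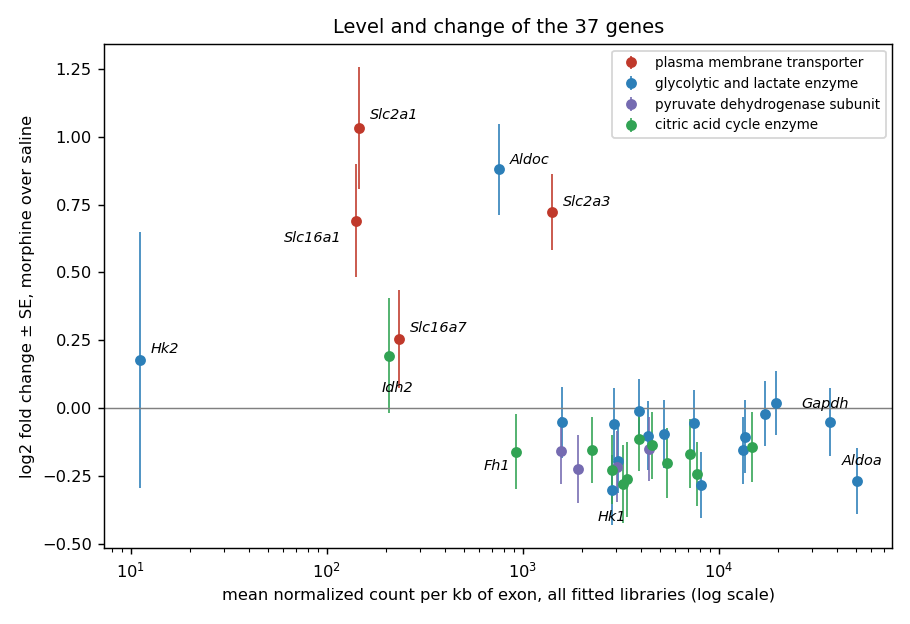
Mean normalized count per kilobase of exon over all fitted libraries (x axis, log scale) against the log2 fold change of morphine over saline with the authors' SE (y axis), 1 point per gene and coloured by role. The transporters lie above 0, 3 of them at 142 to 233 per kilobase and Slc2a3 at 1406, and the enzymes with levels above 1000 per kilobase lie between -0.30 and 0.02.

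The split between transporters and enzymes was set beside the same split over all coding genes, by whether the protein has a predicted membrane or signal segment. Of 3638 tested coding genes with a segment 45.9% were called higher and 0.0825% lower, with a median log2 fold change of 0.58. Of 10032 with none, 2.78% were called higher and 1.51% lower, with a median of -0.06. The transporters all have a segment. Slc2a1 stood at the 87.8th percentile of genes with a segment, Slc2a3 at 64.0, Slc16a1 at 60.5 and Slc16a7 at 24.4. Measured against the median of that kind of gene, the transporters were 0.45, 0.14, 0.11 and -0.33 in the same order on the log2 scale, and 0 of 4 passed (adjusted p = 0.319, 0.789, 0.920 and 0.407, Wald test on the authors' estimates and SEs). Aldoc, at the 97.6th percentile of genes with no segment, was 0.94 above the median of its kind and still passed (adjusted p = 2.43e-06, same test).

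**Figure D3:**
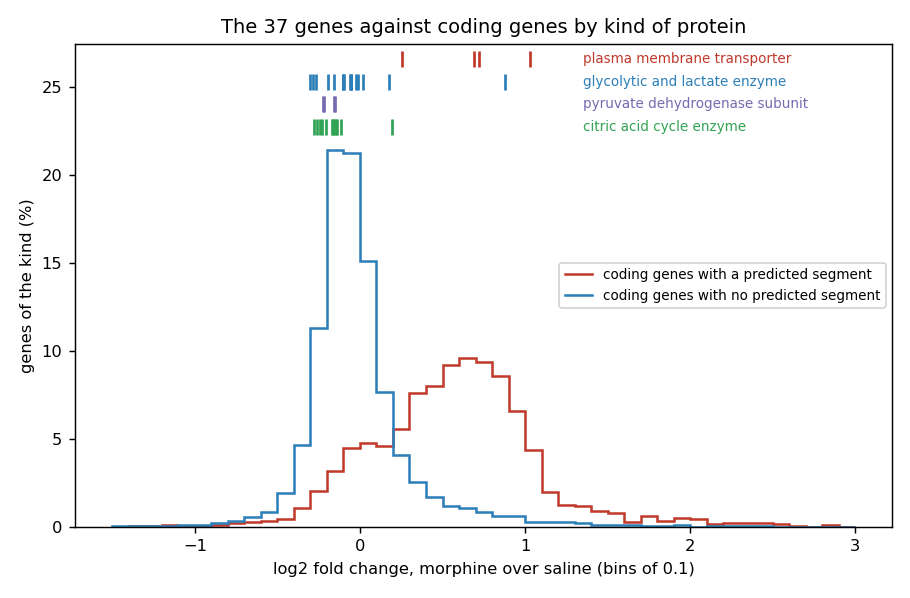
Percentage of coding genes (y axis) by log2 fold change of morphine over saline in bins of 0.1 (x axis), for 3638 genes with and 10032 without a predicted membrane or signal segment; 5 and 17 genes lie outside the axis. Ticks above mark the 37 genes by role: 3 of the 4 transporters lie to the right of 0.58, the median of genes with a segment, and apart from Aldoc the enzymes lie between -0.30 and 0.19.

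Other genes of glucose and pyruvate metabolism were counted from a list of 78, of which 70 are in the authors' deposited table and 67 have an adjusted p. Of 18 tested transporters and their partner proteins 6 rose and 0 fell, with a median of 0.55. This is 33.3%, beside 45.9% of all coding genes with a predicted segment, whose median was 0.58. The sets are not quite alike, since Mpc1 and Mpc2 are among the 18, have no predicted segment and were not called. The share among the rest is thus somewhat above 33.3%. The count says little particular to these transporters. The highest in the authors' deposited table were Slc2a12, which encodes the glucose transporter GLUT12 (3.25, SE 0.60, adjusted p = 2.39e-06, mean 41.1 normalized counts), and Bsg (1.04, SE 0.19), which encodes basigin, the partner that brings MCT1 to the cell surface. The lowest that passed were Slc2a13, the proton-coupled inositol transporter gene (0.67, SE 0.15), and Emb (0.55, SE 0.18), which encodes embigin, another monocarboxylate transporter partner, in the authors' deposited table.

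Mpc1 and Mpc2 encode the pyruvate carrier of the inner mitochondrial membrane. They were the only members of this transporter list below 0, at -0.12 (SE 0.13) and -0.16 (SE 0.15) in the authors' deposited table. They were singled out after their values were seen. Neither has a predicted segment by the rule used here.

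Of 23 tested glycolytic and related enzymes listed as cytosolic, 1 (4.35%) rose and 0 fell, with a median of -0.08. It was Adpgk, the ADP-dependent glucokinase gene, whose protein alone among them has a predicted signal segment and so may not be cytosolic. The authors' deposited table gave it 0.91 (SE 0.24, adjusted p = 0.00204). Of 26 further pyruvate and citric acid cycle genes 1 (3.85%) rose and 1 (3.85%) fell, with a median of -0.12. Where a segment was lacking, 2.78% of all tested coding genes rose and 1.51% fell. The shares over every tested gene were 11.8% and 2.01%. Single calls in lists of 23 and 26 thus say little particular to these enzymes. Pdk4, which encodes a kinase that inhibits pyruvate dehydrogenase, rose 2.92-fold in the authors' deposited table (log2 1.55, SE 0.52, adjusted p = 0.0242), from a mean of 46.4 normalized counts. Gpd2, the mitochondrial glycerol-3-phosphate dehydrogenase gene, was 0.746-fold in the authors' deposited table (log2 -0.42, SE 0.13, adjusted p = 0.0121).

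**Figure D4:**
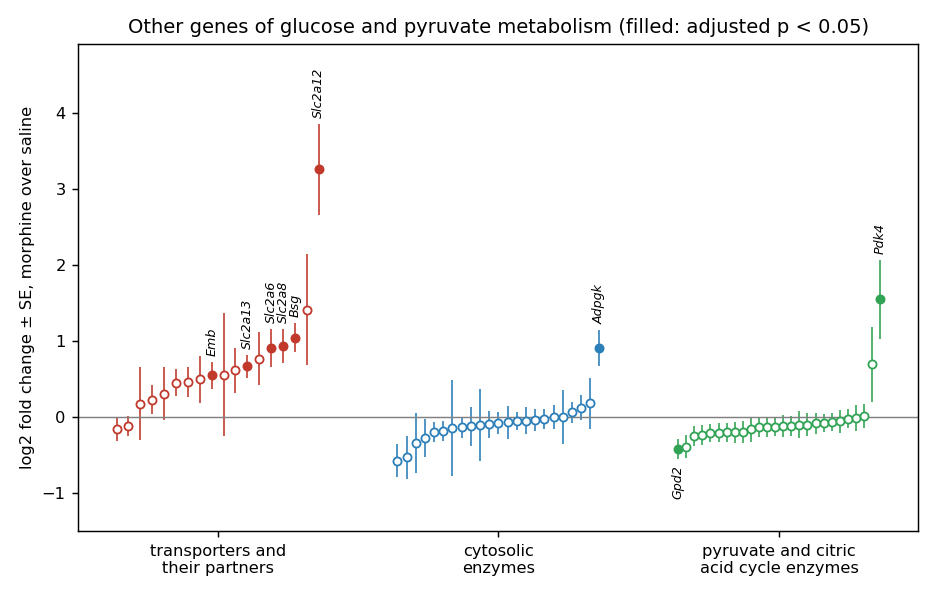
Log2 fold change of morphine over saline with the authors' SE (y axis) of 67 other genes of glucose and pyruvate metabolism, ordered by value within 3 groups (x axis). Named filled points passed an adjusted p of 0.05: 6 of 18 transporters and partners, 1 of 23 enzymes listed as cytosolic and 2 of 26 pyruvate and citric acid cycle genes.

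The nuclear genes of the respiratory chain, which takes the electrons of the cycle, had a median of -0.22, with 10 of 77 lower and 0 higher. Proteasome subunits, which form an abundant soluble complex, had a median of -0.20, with 3 of 36 lower and 0 higher. The shares called lower were thus 13.0% and 8.33%. Over all tested genes 2.01% were lower and 11.8% higher. Of coding genes with no predicted segment and a mean of at least 1000, 2.10% were lower and 2.08% higher. The pyruvate dehydrogenase and citric acid cycle genes had 0 of 16 called at a median of -0.16, and whether they differ from these families was not tested. Mitochondrial carriers of the Slc25a family, membrane proteins made on free ribosomes, had a median of -0.02 with 0 of 40 called and 3 at an unadjusted p under 0.05.

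Several of the enzyme genes have closely similar processed pseudogenes, intronless copies of an mRNA inserted elsewhere in the genome, and most of these had lower values than their parents. The parents with the best-measured copies are shown with their copies in a stretch of 60 coding bases, the ungapped stretch with the most differences, which are in capitals. Bases are numbered from 1 at the start of the longest coding sequence: 366 to 425 in Pkm, 832 to 891 in Ldhb and 637 to 696 in Gpi1.
Pkm, chromosome 9: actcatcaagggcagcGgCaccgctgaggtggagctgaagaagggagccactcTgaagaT
Gm6560, chromosome 5: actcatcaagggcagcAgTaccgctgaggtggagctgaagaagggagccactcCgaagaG
Ldhb, chromosome 6: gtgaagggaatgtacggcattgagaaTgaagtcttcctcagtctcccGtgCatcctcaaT
Gm5514, chromosome 19: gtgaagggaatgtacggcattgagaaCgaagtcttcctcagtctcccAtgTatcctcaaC
Gpi1, chromosome 7: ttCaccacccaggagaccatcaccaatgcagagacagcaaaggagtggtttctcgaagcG
Gm1840, chromosome 8: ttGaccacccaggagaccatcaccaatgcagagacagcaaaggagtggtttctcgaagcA
These stretches hold 4, 4 and 2 differences, and over the whole alignment the copies were 98.4%, 98.0% and 98.7% identical to their parents.

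Of the 37 genes, 10 had at least 1 measured processed pseudogene that matched the coding sequence at 90% identity or more, 85 in all, and 64 of these were copies of Gapdh. Of the 50 with an adjusted p, 12 were lower and 0 higher, beside 18.8% of all tested processed pseudogenes called lower. Their median log2 fold change was -1.03 with 47 of 50 below 0, near the -0.88 of all 977 tested processed pseudogenes, of which 88.9% were below 0. The 10 parents lay between -0.28 and -0.02. For 46 of the 50 the value was below that of the parent, and for 18 the whole 95% interval was.

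The authors' deposited table gave the Pkm copy Gm6560 -1.10 (SE 0.20, adjusted p = 1.55e-06), against -0.02 for Pkm. The authors' deposited table gave the Ldhb copy Gm5514 -1.34 (SE 0.22, adjusted p = 6.22e-08), against -0.11 for Ldhb. The authors' deposited table gave the Gpi1 copy Gm1840 -1.01 (SE 0.25, adjusted p = 0.00071), against -0.28 for Gpi1.

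Single copies of Pdhb (Gm6123) and Ldha (Gm11814) and 2 copies of Aldoa (Gm5276 and Aldoa-ps4) were also lower, between -2.17 and -1.62 in the authors' deposited table. Of 35 tested Gapdh copies 5 were lower, the lowest of them Gm29667, for which the authors' deposited table gave -2.33 (SE 0.32, adjusted p = 5.72e-11). The copies hold few reads beside their parents. Summed over all copies, the mean normalized count came to 3.08% of that of Gapdh, 1.75% of Ldhb, 0.948% of Pkm and 0.941% of Gpi1. How reads that match several places were counted is not given in the sources used here, so how far reads of copies and parents were mixed is unknown.

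**Figure D5:**
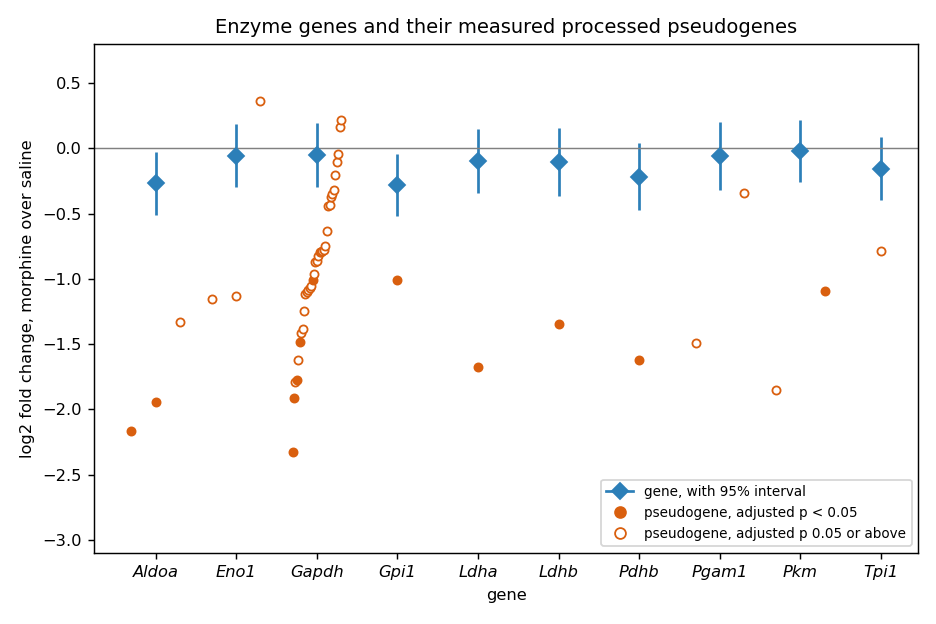
Log2 fold change of morphine over saline (y axis) of 10 enzyme genes (diamonds, with 95% intervals) and of their 50 tested processed pseudogenes (circles, filled where the adjusted p was below 0.05), spread sideways for visibility. The genes lie between -0.28 and -0.02, and 47 of the 50 pseudogenes lie below 0, beside 88.9% of all 977 tested processed pseudogenes.

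Exons of other annotated genes overlap 13 of the 37 genes for between 0.146% and 16.1% of their exon bases. The largest overlaps are of Map3k15 with Pdha1 on the opposite strand and of Gm49759 with Pkm on the same strand, and their means were 50.8 and 18.1 normalized counts in the authors' deposited table. Whether the counting used strand is not given in the sources used here.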

How the data were processed

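RNA was sequenced after ribosome affinity purification from 3 morphine and 3 saline libraries. The submitters' processing notes name STAR 2.6.1d, DESeq2 1.20.0, GRCm38 and mm10 without saying what each was used for. Which program counted reads, which model and filters applied and which libraries were fitted is not given in the sources used here. RM-out in the title of the table is a term without explanation, so a library may have been omitted. The authors' deposited mean per gene is a signal, the average over libraries of counts scaled by size factors. The authors' deposited fold changes and SEs are on the log2 scale. As a score the authors deposited the Wald statistic, which equals the fold change divided by its SE, and its two-sided p-values (Wald) and their Benjamini-Hochberg adjustment are also the authors'. Depth per library is unknown. No label says that libraries came from separate litters, batches or days, so p-values measure only the spread between these pools.

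Intervals (95%) are the fold change plus or minus the normal quantile times the SE. Symbols, exons and coding sequences came from GENCODE M21 (GRCm38), which named 18726 of the 18732 identifiers. A membrane segment was any window of 19 residues whose Kyte-Doolittle hydropathy averaged 1.9 or more; for a signal segment the window was 12 residues within the first 40, averaging 2.2 or more; genes whose only membrane segment starts within the last 50 residues were placed in neither kind. Copies were matched with blastn 2.17.0 (same strand, at least 90% identity over at least 100 bases). An SE typical of a gene's level is the median over the 500 genes nearest in mean. The scripts ran in Python 3.11.15 with Biopython 1.88, scipy 1.17.1, pandas 2.3.3, matplotlib 3.10.9 and numpy 2.4.6. The adjustment and centring steps were tested on simulated data. Members and lists were chosen with earlier results of these data known. All members are named; of the other pathway genes, the 2 highest and 2 lowest called in each role; of each glial and choroid plexus marker list, the 2 most extreme called. Spiny projection neuron markers and gene families are given by counts only. Pseudogene copies, Mpc1 and Mpc2 were named after their values were seen.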

Additional observations from a re-analysis of the deposited data

How the results depend on the processing

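No paired analysis was possible because the deposited table holds no values per library, and leaving out each replicate in turn could not be run for the same reason. The count of genes called higher, 4, was 3 to 4 under 6 alternatives (adjusted p below 0.01 or 0.1, adjustment over every gene with a p, genes with a mean of at least 100, centring, and the statistic divided by its spread of 1.37), and the count called lower was 0 in all of these. Centred within the kind of protein, chosen after seeing the data, 1 was higher (Aldoc) and 2 lower (Ldha and Mdh1). Ldha and Mdh1 are lower there by construction, since 0.58 is subtracted from genes with a predicted segment. Only 6 of the 12 lower pseudogene copies have a mean of at least 100, by the filter's own construction; at 95% identity the count was 9, and at adjusted p below 0.01 and 0.1 it was 10 and 15. The last 4 were also chosen after seeing the data. Centring moved all values by 0.02 and turned the sign of Pfkm (0.0066). The medians of the role groups moved by less than the median SE under centring, weighting and leaving out the 9 genes with a measured copy at 95% identity or more. Precision is lowest for Hk2, whose SE of 0.47 is the largest of the 37.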

Other observations

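Of 239 tested genes named as solute carriers with a numbered family and member, 120 (50.2%) were higher after morphine and 0 lower. Their median log2 fold change was 0.62. Among all coding genes with a predicted membrane or signal segment 45.9% were higher, with a median of 0.58. The share over all 239 is near that, but the 239 are a mixed set. The Slc25a carriers among the 239 had 0 of 40 called. All the calls thus lie among the other solute carriers, whose share is above 50.2%. Whether that share differs from 45.9% was not tested. The 4 glucose and lactate transporters are among the 239.

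Some copies of the enzyme genes are annotated as protein coding. Aldoart2, a retrogene 91.7% identical to the Aldoa coding sequence, was lower, and the authors' deposited table gave -1.74 (SE 0.44, adjusted p = 0.00116). The authors' deposited table gave Aldoart1 -1.52 (SE 0.61, adjusted p = 0.0804) and the citrate synthase-like gene Csl -1.20 (SE 0.90, adjusted p = 0.509). For Eno1b, 99.4% identical to Eno1, the authors' deposited table gave -0.34 (SE 0.39, adjusted p = 0.730). Transcripts of Peli2 hold a stretch of 877 bases that is 92.4% identical to Gapdh, and Peli2 was at -0.12 (SE 0.14, mean 2933 normalized counts) in the authors' deposited table. These genes were chosen after their values were seen.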
